A study of Mus musculus with 36 samples.

Results

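The transcriptome of the mouse heart was compared across lights on, in the 3 libraries labelled WT ZT22 and the 3 labelled WT ZT2. These are 6 of the 36 samples in the series, chosen by their labelled genotype and zeitgeber time (ZT, hours after lights on): ZT22 is 2 h before and ZT2 is 2 h after the lights came on. The series sampled hearts every 4 h over a day from 2 genotypes, WT and KO, with 3 libraries at each time. Per the labels, all were hearts of C57BL/6 mice, 8 weeks old, kept in 12 h of light and 12 h of dark on normal chow. The series title contrasts Reverb fl/fl hearts with those of genotype Reverb fl/fl /MHC+, so by that title the hearts labelled WT carry the floxed Reverb alleles too, without the MHC allele, and the labels say no more about them. Tissue was flash frozen and whole-heart RNA was sequenced. The sex is not stated. Nor do the labels say whether the 3 libraries of a group are 3 animals, so the spread on which every p-value here rests is that among libraries and may be technical.

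Lights on is the start of the rest phase for nocturnal mice, which eat and move mostly in the dark. Heart cells carry a circadian clock in which CLOCK and BMAL1 (the product of Arntl) drive genes with E-box sequences, among them the Period, Cryptochrome and Rev-erb (Nr1d1, Nr1d2) repressors, while REV-ERB and ROR receptors compete at ROR elements of Arntl, Clock and Nfil3. Light, feeding, body temperature, glucocorticoid hormone and autonomic input also change around this time of day and reach the heart as signals other than its own clock.

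The tables give 1 FPKM value (fragments scaled to transcript length and to the library's reads) per gene and library. Depths rebuilt from the smallest steps between FPKM values were 14370000 to 15620000 reads in the 6 libraries. Cardiomyocyte markers dominated every library, with a sum over 9 markers of 52983 to 56228 FPKM, while 10 lymphocyte markers summed to at most 2.5 FPKM. Library pairs within ZT22 correlated at r = 0.9974 to 0.9979 across genes on the log2(FPKM + 1) scale. Replicates 2 and 3 of ZT2 correlated at 0.9972, and replicate 1 of ZT2 correlated with them at 0.9953 and 0.9943; genes are not independent replicates, and these values only describe the libraries. Replicate 1 of ZT2 stood apart in heat shock genes, and when libraries were weighted by their fit it received a weight of 0.291, the lowest of the 33 libraries. The counts of calls in the gene lists below are therefore also given without it.

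Of 11790 genes tested, 3242 differed between ZT2 and ZT22 at an adjusted p under 0.05 (limma on log2(FPKM + 1), Benjamini-Hochberg over all genes tested), which is 27.5%. At ZT2, 1493 genes were higher (12.7%) and 1749 were lower (14.8%), with a median difference over all genes of -0.02 on the log2 scale. The split depended on scaling: 1707 genes were higher and 1578 lower with median-ratio scaling, and 1736 and 1576 with quantile normalization. Most of these differences were small: 200 higher and 241 lower genes passed 0.5 on the log2 scale, 40 and 15 passed 1, and 6 and 2 passed 2. Without replicate 1 of ZT2, 2586 genes were called (21.9%), 1236 higher and 1350 lower. Of the original calls, 1079 higher and 1180 lower genes remained and 0 changed direction. Fitted on the 6 libraries alone, the comparison called 1535 genes, 694 higher and 841 lower, and of the genes described below as called, Aplnr, Cdkn1a, Bhlhe41, Cry1 and Serpinh1 were among those not called in it. A p-value of 0.1 is the smallest that an exact permutation test of 3 against 3 libraries can give, so single genes were tested only in the fit across all genes. All 3 ZT2 values lay above all 3 ZT22 values in 1939 of the genes tested (16.4%) and below them in 2395 (20.3%). A lack of overlap, given for single genes below, was thus common. FPKM are shares of a library, so a higher value is a higher share of the heart's measured RNA. In RNA of a tissue with several cell types, fewer cells of a type and less RNA per cell cannot be told apart.

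**Figure D1:**
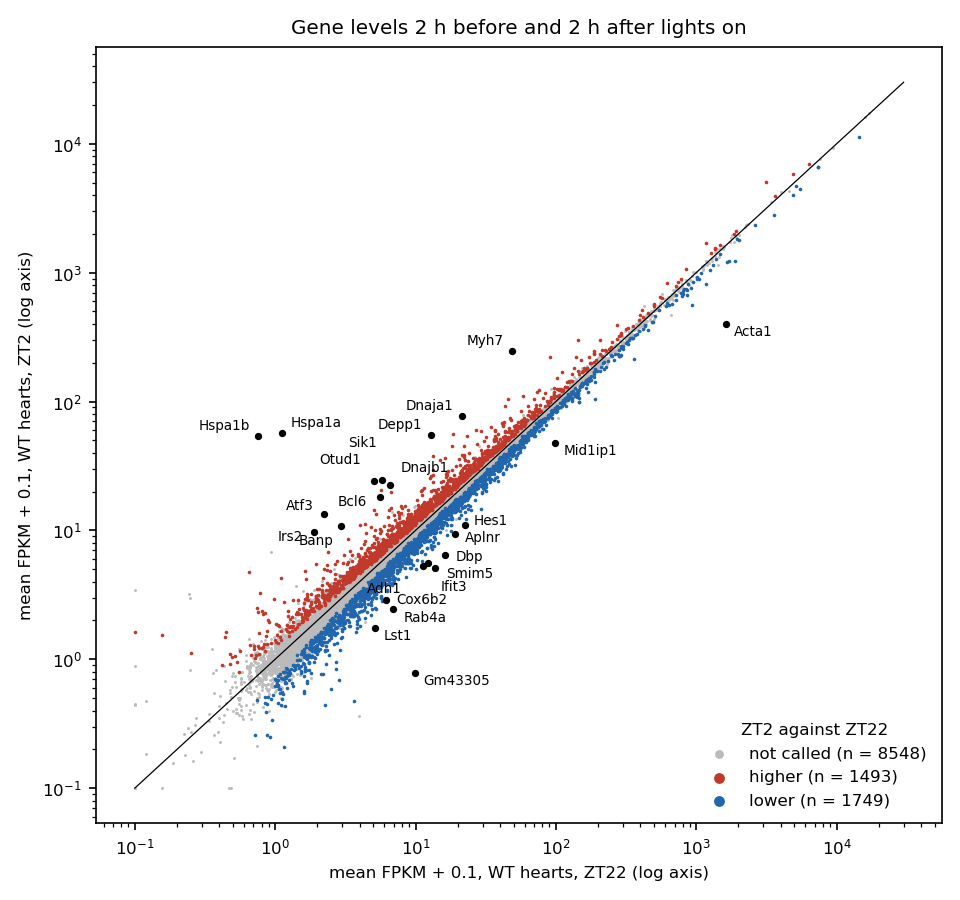
Mean FPKM of each tested gene at ZT22 (x axis) and at ZT2 (y axis), 3 WT libraries each, both on log axes after adding 0.1, with the line of equal levels. Red and blue points are the 1493 genes called higher and the 1749 called lower at ZT2, and grey points were not called. The 24 labelled genes are the 12 largest increases and 12 largest decreases by the naming rule. Of the labelled genes, Hspa1a and Hspa1b lie farthest above the line and Gm43305 and Acta1 farthest below.

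The 12 largest increases by the naming rule were led by Hspa1b and Hspa1a, followed by the myosin gene Myh7 and by Atf3, Otud1, Depp1, Irs2 and Sik1. The rule named only called genes whose 3 and 3 values did not overlap. The lack of overlap in these increases and in the largest decreases is therefore no separate result. Hspa1b, 1 of 2 genes for the inducible HSP70 chaperone, was at 0.87, 0.53 and 0.57 FPKM in the ZT22 libraries and at 114, 23.5 and 23.8 FPKM in the ZT2 libraries. All ZT2 libraries lay far above all ZT22 libraries, with replicate 1 at the top (log2 difference 4.64 ± 0.38 SE, adjusted p = 1.7e-09, and 3.90 without replicate 1). Atf3, a transcription factor induced by many stresses, was at 2.64, 1.72 and 2.01 FPKM before and 21.1, 9.96 and 8.85 FPKM after lights on, again without overlap (log2 2.11 ± 0.21 SE, adjusted p = 3.6e-08; 1.75 without replicate 1). Irs2, the insulin receptor substrate that passes the insulin signal to PI3 kinase, was at 1.46, 1.62 and 2.27 FPKM and then at 11.7, 7.28 and 9.72 FPKM (log2 1.92 ± 0.12 SE, adjusted p = 2.4e-11). Sik1, a salt-inducible kinase whose gene is a classic target of CREB, was at 5.43, 5.75 and 5.69 FPKM and then at 31.8, 21.1 and 20.1 FPKM (log2 1.91 ± 0.12 SE, adjusted p = 1.8e-11). In both genes the 3 libraries of ZT2 lay above the 3 of ZT22, and the differences without replicate 1 were 1.77 and 1.70.

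Otud1, Depp1 and Bcl6 were also among the 12 largest increases, and were close to equal among the 3 libraries of each time. Otud1, which encodes a deubiquitinase, was at 4.84, 4.57 and 5.43 FPKM at ZT22 and 26.4, 24.1 and 22.2 FPKM at ZT2 (log2 2.08). Depp1, a known FOXO target, was at 12.6, 12.8 and 13 FPKM at ZT22 and 58.7, 54.5 and 51.4 FPKM at ZT2 (log2 2.02). For Bcl6, a transcriptional repressor, the values were 5.02, 5.0 and 6.35 FPKM at ZT22 and 20.3, 17.5 and 16 FPKM at ZT2 (log2 1.55). Groups did not overlap in any of these genes, as the naming rule requires, and adjusted p-values were 3.6e-09, 1.3e-08 and 9.0e-10. Banp, a DNA-binding nuclear protein gene, rose by 1.58, and Hspa1a, Dnaja1, Dnajb1 and Myh7 are described with their groups.

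The largest decreases included a muscle actin, the clock output gene Dbp and genes of several non-muscle functions. Gm43305, a predicted gene, was at 8.33, 11.4 and 9.76 FPKM at ZT22 and at 0.62, 0.60 and 0.83 FPKM at ZT2 (log2 -2.68 ± 0.44 SE, adjusted p = 5.1e-05). Hes1, a repressor induced by Notch signalling, was at 23.1, 24 and 20.4 FPKM and then at 10.4, 10.7 and 11.6 FPKM (log2 -0.98 ± 0.09 SE, adjusted p = 4.2e-09). Mid1ip1, which promotes the activity of acetyl-CoA carboxylase in fat synthesis, was at 97.7, 111 and 86.8 FPKM and then at 38.4, 49.6 and 55.4 FPKM (log2 -1.04, adjusted p = 7.5e-08). No library of ZT2 reached the lowest library of ZT22 in these 3 genes, as the naming rule requires. Aplnr, the apelin receptor of endothelial cells, fell from 18.6, 21.3 and 17 FPKM to 4.23, 12.3 and 11.2 FPKM. Replicate 1 was the lowest of its group for this gene (log2 -1.07, and -0.64 without replicate 1, adjusted p = 0.0014). Smim5 fell by 1.29, Rab4a, a GTPase of endosome recycling, by 1.23, Lst1, a leukocyte gene, by 1.17, and Adh1, an alcohol dehydrogenase, by 1.01 on the log2 scale. Cox6b2, an isoform of a cytochrome oxidase subunit, was at 4.46, 5.87 and 7.78 FPKM and then at 0.85, 4.13 and 3.41 FPKM, and its call was lost without ZT2 replicate 1 (log2 difference -0.54, adjusted p = 0.24), without ZT22 replicate 2 (log2 difference -0.996, adjusted p = 0.061) and without ZT22 replicate 3 (log2 difference -0.82, adjusted p = 0.12).

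More than the background share of the listed heat shock and chaperone genes rose at ZT2. Heat shock factor 1 drives genes of the heat shock response when unfolded protein accumulates or temperature rises, through repeats of the letters GAA in their promoters. Besides cytosolic chaperones the list holds Hspd1 and Hspe1, which are mitochondrial, and the factor genes Hsf1 and Hsf2. Of 33 listed genes, all tested, 19 rose and 3 fell, against 12.7% and 14.8% of all genes. Their median log2 difference was 0.25 against -0.02 over all genes. Without replicate 1, 13 rose and 4 fell, and the median was 0.15. Hspa1a and Hspa1b lie side by side on chromosome 17, and 58.8% of the 50-base words of the longest Hspa1a transcript are also in that of Hspa1b, so the division of reads between them is uncertain. The 250 bases before the annotated start are shown for both and for Dnaja1 (RefSeq, GRCm38.p6, 5′ to 3′ on the gene's strand), because these 3 genes are among the largest increases and hold the heat shock element core GAANNTTC there, in capitals. They span chr17:34972157-34972406 on the minus strand, chr17:34959239-34959488 on the minus strand and chr4:40722218-40722467 on the plus strand.
Hspa1a: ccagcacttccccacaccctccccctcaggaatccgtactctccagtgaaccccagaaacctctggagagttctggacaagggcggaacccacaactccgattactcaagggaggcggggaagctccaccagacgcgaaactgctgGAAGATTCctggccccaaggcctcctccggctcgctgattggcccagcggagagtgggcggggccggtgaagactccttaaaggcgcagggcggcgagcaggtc
Hspa1b: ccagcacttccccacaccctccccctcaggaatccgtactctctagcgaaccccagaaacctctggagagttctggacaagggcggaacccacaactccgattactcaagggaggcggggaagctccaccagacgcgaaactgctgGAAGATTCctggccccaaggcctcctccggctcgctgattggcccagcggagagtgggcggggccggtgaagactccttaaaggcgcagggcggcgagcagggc
Dnaja1: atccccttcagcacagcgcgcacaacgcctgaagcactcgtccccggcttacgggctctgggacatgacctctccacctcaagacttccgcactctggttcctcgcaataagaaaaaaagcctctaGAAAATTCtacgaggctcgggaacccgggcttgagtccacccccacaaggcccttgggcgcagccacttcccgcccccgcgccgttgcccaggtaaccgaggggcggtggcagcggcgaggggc
The match begins 104 bases before the start in Hspa1a and Hspa1b, whose stretches are identical at 247 of 250 positions, and 124 bases before it in Dnaja1. The core reads the same on both strands. It occurred in 6.69% of all 32851 promoter stretches of this length, and in any stretch of 7.73% of 27025 genes. Counted by gene in the same way, it was in 5 of the 16 chaperone genes that rose and have an entry. It was in 1 of 2 that fell and in 3 of 9 that were not called. A match describes the letters only.

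The inducible HSP70 genes were near 1 FPKM before lights on. Hspa1a was at 1.06, 0.86 and 1.15 FPKM at ZT22 and 114, 28.9 and 26.9 FPKM at ZT2 (log2 4.50 ± 0.35 SE, adjusted p = 7.8e-10; 3.84 without replicate 1). Dnaja1, an HSP40 partner of HSP70, was at 21.5, 21.2 and 21.4 FPKM and then at 105, 63.5 and 61.4 FPKM (log2 1.75 ± 0.14 SE, adjusted p = 8.2e-10). Dnajb1, a further HSP40 partner, was at 6.59, 7.02 and 5.92 FPKM and then at 31.1, 19.2 and 17 FPKM (log2 1.60, adjusted p = 8.3e-09). In all 3 genes the group ranges were apart, as the naming rule requires, and the differences without replicate 1 were 3.84, 1.505 and 1.34 on the log2 scale. The inducible HSP90 gene Hsp90aa1 was at 90.8, 83.1 and 98.7 FPKM and then at 339.8, 165 and 155 FPKM (log2 1.18 ± 0.18 SE, adjusted p = 2.0e-05; 0.82 without replicate 1). The constitutive HSP70 gene Hspa8 was at 1152, 1103 and 1237 FPKM and then at 1962, 1622 and 1493 FPKM (log2 0.53, adjusted p = 1.1e-06; 0.42 without replicate 1). Dnajb4 rose by 1.02, Chordc1 by 0.59, Ahsa2 by 0.60, Serpinh1, the collagen chaperone, by 0.45, and Bag3, a co-chaperone of HSP70 in muscle, by 0.35, and each stayed called without replicate 1.

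Other chaperones were called only with replicate 1 in the comparison. Hsph1, an HSP110 nucleotide exchange factor, was at 34.5, 30.7 and 38.5 FPKM at ZT22 and 103, 45.6 and 42.1 FPKM at ZT2, with replicate 1 more than the sum of the other libraries of its group. Its call (log2 0.75, adjusted p = 0.019) was lost without ZT2 replicate 1 (log2 difference 0.34, adjusted p = 0.23) and without ZT22 replicate 2 (log2 difference 0.66, adjusted p = 0.071). The calls of Hspa1l, Hspa4, Dnaja4, Hspd1 and Stip1 were also lost without replicate 1, with differences from 0.12 (Hspa4, Hspa1l and Hspd1) to 0.17 (Dnaja4) and adjusted p-values from 0.073 to 0.46. Of the small heat shock proteins, which are abundant chaperones of muscle, Hspb6, Hspb7 and Cryab fell, while Hspb1, Hspb2 and Hspb8 were not called (log2 0.22, -0.003 and -0.13, adjusted p = 0.32, 0.98 and 0.083). Hspb6 was at 2022, 1803 and 1847 FPKM and then at 1259, 1231 and 1202 FPKM (log2 -0.62 ± 0.06 SE, adjusted p = 3.6e-08). Hspb7 was at 1725, 1609.8 and 1597 FPKM and then at 1253, 1141 and 1262 FPKM (log2 -0.43, adjusted p = 1.1e-06), and Cryab fell by 0.36 (adjusted p = 3.3e-04). All ZT2 libraries, replicate 1 included, lay below all ZT22 libraries in the 3 genes that fell. Hsf1 itself was at 24.1, 24.8 and 24.5 FPKM and 23.5, 21.1 and 20.1 FPKM (log2 -0.18, adjusted p = 0.069); without replicate 1 it was called lower, at -0.24 (adjusted p = 0.029).

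**Figure D2:**
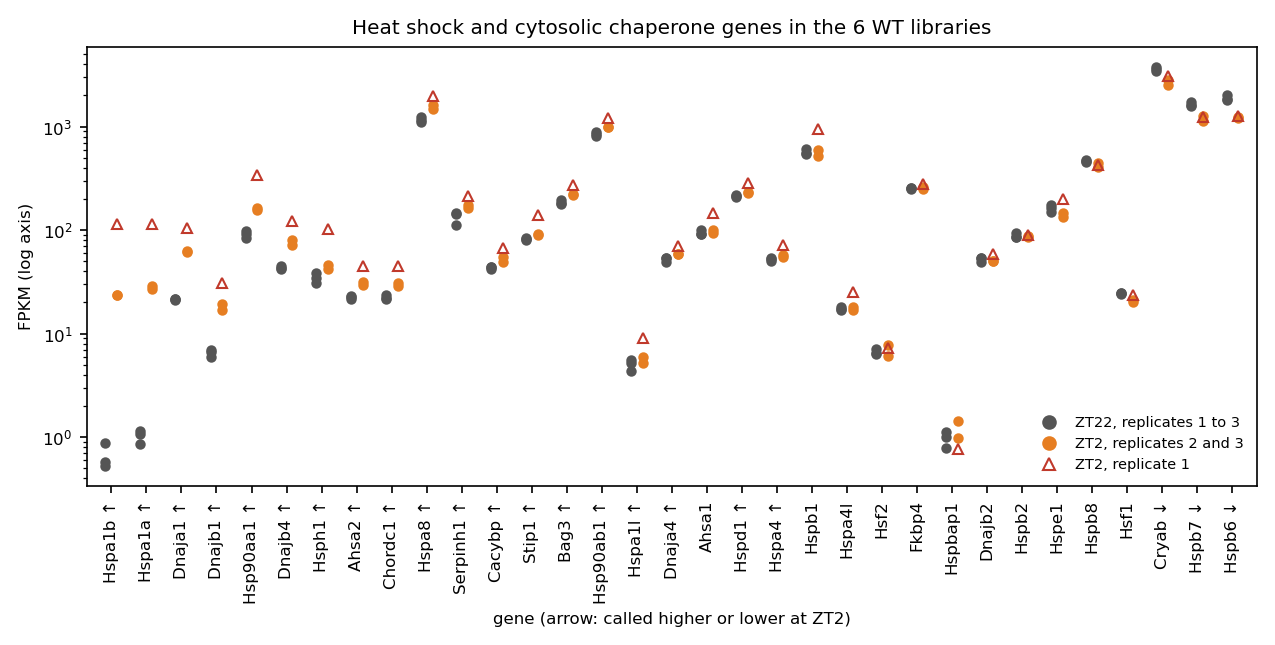
FPKM (log axis) of the 33 heat shock and cytosolic chaperone genes in each library, ordered by log2 difference: grey points are the 3 ZT22 libraries, orange points replicates 2 and 3 of ZT2, and open red triangles replicate 1 of ZT2; arrows mark called genes. Replicate 1 is the highest ZT2 library in nearly the whole left part of the plot, while replicates 2 and 3 also lie above ZT22 for Hspa1a, Hspa1b, Dnaja1 and Dnajb1.

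Chaperones of the endoplasmic reticulum, which fold secreted and membrane proteins and are induced by the unfolded protein response, rose with little dependence on replicate 1. Of 23 tested genes, 18 rose and 0 fell, against 12.7% and 14.8% of all genes, with a median log2 difference of 0.41. The counts without replicate 1 were again 18 and 0, and the median was 0.35. Sdf2l1, a partner of the BiP chaperone, was at 3.3, 3.34 and 3.02 FPKM at ZT22 and 10.8, 7.43 and 7.39 FPKM at ZT2 (log2 1.16 ± 0.13 SE, adjusted p = 3.3e-07; 0.996 without replicate 1). Hsp90b1, the HSP90 of this compartment, was at 138, 133 and 148 FPKM and then at 245, 203 and 211 FPKM (log2 0.64 ± 0.08 SE, adjusted p = 5.2e-07). No ZT2 library overlapped ZT22 in either gene. Pdia4, a disulfide isomerase, rose by 0.85 and Creld2 by 0.80. Herpud1, a component of protein disposal from this compartment, and P4hb, a disulfide isomerase, were not called, at 0.12 and 0.05 (adjusted p = 0.16 and 0.38).

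Genes of the integrated stress response, which ATF4 drives when translation initiation is restrained, were higher in part. Of 19 tested, 9 rose and 0 fell (median 0.29), against 12.7% and 14.8% of all genes, and 6 and 0 without replicate 1. Atf4 was at 40.5, 44.1 and 40.1 FPKM and then at 82.9, 57.1 and 56.8 FPKM, without overlap (log2 0.62 ± 0.10 SE, adjusted p = 2.3e-05; 0.45 without replicate 1). Ddit4, an inhibitor of mTORC1 that also answers to hypoxia and glucocorticoids, was at 18.1, 18.4 and 17.6 FPKM and then at 61.1, 34.7 and 38.6 FPKM (log2 1.22 ± 0.18 SE, adjusted p = 9.9e-06; 0.98 without replicate 1). Slc7a1, a transporter of basic amino acids, rose by 0.66 (adjusted p = 1.0e-04). Shmt2 and Slc3a2 were not called (log2 -0.03 and 0.18, adjusted p = 0.64 and 0.28), and Slc3a2 was called without ZT2 replicate 3 (log2 difference 0.38, adjusted p = 0.0056).

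Immediate early genes, which answer growth factors, hormones and nerve input within minutes, had the highest median of the pathway lists. Of 22 tested, 17 rose and 0 fell, against 12.7% and 14.8% of all genes, with a median of 0.70. Without replicate 1 the counts were 14 and 0 and the median 0.61. Klf4, a Krüppel-like factor, was at 13.6, 13.3 and 12.8 FPKM at ZT22 and 33.4, 25.1 and 29.9 FPKM at ZT2 (log2 1.09 ± 0.09 SE, adjusted p = 2.0e-09). Ier3 was at 16, 13.9 and 14.7 FPKM and then at 30.7, 30.8 and 43.1 FPKM (log2 1.16, adjusted p = 3.0e-07), with replicate 3 at the top. In Klf4 and Ier3 the groups were apart and the values without replicate 1 were 0.999 and 1.24. Nr4a1, an orphan nuclear receptor, was at 5.82, 4.26 and 6.54 FPKM and then at 36.2, 9.7 and 15.8 FPKM, with replicate 1 above the others (log2 1.54 ± 0.27 SE, adjusted p = 1.3e-04; 1.05 without replicate 1). Fosl2, a partner of JUN, rose by 1.21 (0.91 without replicate 1). Dusp1 and Zfp36, both early genes as well, were not called (log2 0.23 and 0.22, adjusted p = 0.17 and 0.22).

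Krüppel-like factors and genes that answer glucocorticoids overlap with those lists in part. Of 12 Krüppel-like factors tested, 6 rose and 2 fell (median 0.25), the same counts as without replicate 1, against 12.7% and 14.8% of all genes. Klf2, a factor of endothelial cells under flow, was at 27.2, 28.9 and 31 FPKM and then at 55.9, 55.5 and 64.4 FPKM (log2 0.99 ± 0.07 SE, adjusted p = 2.0e-10). Klf15, which controls amino acid and lipid use in heart muscle, was at 20.6, 18.6 and 23.2 FPKM and then at 36.1, 33.9 and 26.5 FPKM (log2 0.60, adjusted p = 0.0014). The groups did not overlap in either gene. Of 20 glucocorticoid-responsive genes tested, 10 rose and 1 fell, with a median of 0.53; without replicate 1 the counts were 9 and 3 and the median 0.29. Errfi1, an inhibitor of the EGF receptor, was at 6.47, 6.28 and 6.92 FPKM and then at 26.6, 15 and 17.4 FPKM (log2 1.41, adjusted p = 8.3e-08; 1.18 without replicate 1). Cdkn1a, the p21 cell cycle inhibitor, was at 18.8, 20.8 and 15.2 FPKM and then at 102, 35.1 and 30.01 FPKM (log2 1.35; 0.81 without replicate 1, adjusted p = 0.0029). Replicate 1 was the highest library for both. Mt1, a metallothionein, was at 289, 258 and 293 FPKM and 380.4, 213 and 214 FPKM: it was not called with all libraries (log2 -0.11, adjusted p = 0.64) and was called lower without replicate 1 (-0.39, adjusted p = 0.04).

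The core clock moved in both directions, beside 12.7% of all genes called higher and 14.8% called lower. Of 6 clock genes with ROR elements, 3 rose and 2 fell, and of 12 clock genes with E-boxes, 4 rose and 6 fell; without replicate 1 these counts were 3 and 1, and 3 and 5. Promoter stretches are shown for Per1 and Tef, which hold the E-box CACGTG (in capitals, the same letters on both strands) and moved in opposite directions, and for Nr1d2, which holds the core AGGTCA of ROR and REV-ERB receptors (in capitals). They are the 250 bases before an annotated start (RefSeq, GRCm38.p6, 5′ to 3′ on the gene's strand), at chr11:69098699-69098948 on the plus strand, chr15:81802423-81802672 on the plus strand and chr14:18239107-18239356 on the minus strand.
Per1: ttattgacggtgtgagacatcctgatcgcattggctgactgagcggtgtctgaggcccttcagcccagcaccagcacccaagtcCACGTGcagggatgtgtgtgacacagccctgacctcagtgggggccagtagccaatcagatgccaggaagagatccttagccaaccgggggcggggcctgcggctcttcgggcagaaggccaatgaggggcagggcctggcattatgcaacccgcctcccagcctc
Tef: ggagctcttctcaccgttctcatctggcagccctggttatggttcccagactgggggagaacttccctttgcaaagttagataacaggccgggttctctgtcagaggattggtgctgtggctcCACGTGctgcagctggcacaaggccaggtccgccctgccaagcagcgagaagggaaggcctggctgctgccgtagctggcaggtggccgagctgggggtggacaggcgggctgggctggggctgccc
Nr1d2: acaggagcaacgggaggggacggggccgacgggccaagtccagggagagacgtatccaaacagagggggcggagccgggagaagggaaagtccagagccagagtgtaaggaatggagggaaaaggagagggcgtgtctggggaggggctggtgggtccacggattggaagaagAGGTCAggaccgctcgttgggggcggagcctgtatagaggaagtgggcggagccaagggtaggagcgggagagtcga
The matches begin 166, 127 and 77 bases before the start. The E-box occurred in 6.02% of all 32851 promoter stretches and the AGGTCA core, searched on both strands, in 14%. Counted by gene over any of its stretches, as in the counts that follow, the shares were 6.86% and 15.8% of 27025 genes. Of the E-box clock genes with an entry, CACGTG was in 1 of 3 that rose, 2 of 6 that fell and the 1 not called. AGGTCA was in 2 of 3 that rose, Nr1d2 and Per1, and in 0 of 6 that fell. The call of Per1 was lost without replicate 1 of ZT2. In Per1 the core AGGTCA lies on the opposite strand, where it reads TGACCT in the stretch above and is not capitalised. Among the clock genes with ROR elements, AGGTCA was in 2 of 3 that rose, Clock and Nfil3, in 0 of 1 that fell and in 0 of 1 not called. Per1 and Tef have 2 annotated starts in this table, and Dnaja1 has 3, of which 1 each is shown. Here too a match describes the letters only, and the bases beside the core AGGTCA were not searched.

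Among repressors of the clock, Nr1d1, which encodes REV-ERBα, was at 13.6, 9.29 and 16.5 FPKM at ZT22 and 39.8, 38.3 and 34.3 FPKM at ZT2 (log2 1.48 ± 0.16 SE, adjusted p = 1.6e-07). Nr1d2, which encodes REV-ERBβ, was at 10.8, 10.7 and 11.6 FPKM and then at 20.4, 18.3 and 17 FPKM (log2 0.70 ± 0.08 SE, adjusted p = 5.9e-07). All ZT2 libraries lay above all ZT22 libraries in both genes, and the differences without replicate 1 were 1.43 and 0.63. Nr1d1 overlaps Thra on the opposite strand, and the counting is not stated to use strand, so reads of the 2 genes may not be told apart there. Bhlhe40, which encodes the E-box repressor DEC1, was at 12.5, 14.2 and 10.9 FPKM and then at 28.6, 24 and 23.4 FPKM (log2 0.96, adjusted p = 3.6e-08). Its paralog Bhlhe41, for DEC2, fell from 6.14, 6.32 and 5.08 FPKM to 3.69, 4.51 and 4.91 FPKM (log2 -0.35, adjusted p = 0.0029). Replicate values did not overlap for either paralog. Cry1 fell by 0.30 and Cry2 by 0.48 on the log2 scale (adjusted p = 0.0013 and 7.2e-06).

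The calls of the Period genes depended on replicate 1 of ZT2 and on other libraries. Per1 was at 6.04, 7.43 and 6.36 FPKM at ZT22 and 13.4, 8.12 and 8.12 FPKM at ZT2, so that replicates 2 and 3 lay just above the top of ZT22. Its call (log2 0.49, adjusted p = 0.02) was lost without ZT2 replicate 1 (log2 difference 0.27, adjusted p = 0.20), without ZT22 replicate 1 (log2 difference 0.43, adjusted p = 0.078) and without ZT22 replicate 3 (log2 difference 0.46, adjusted p = 0.06). Per2 was not called: it was at 1.81, 1.99 and 1.43 FPKM and 4.32, 2.13 and 1.47 FPKM, and replicate 1 was the only ZT2 library far from ZT22 (log2 0.34, adjusted p = 0.15); it was called without ZT2 replicate 3 (log2 difference 0.58, adjusted p = 0.013). Per3 fell (log2 -0.35, adjusted p = 0.007), and this call was lost without ZT2 replicate 1 (log2 difference -0.19, adjusted p = 0.094). Ciart, a repressor with a similar rhythm, was not called (log2 -0.23, adjusted p = 0.40).

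Clock and the D-box factors were more even, while the call of Arntl depended on which libraries were used. Clock was at 6.37, 6.15 and 5.96 FPKM at ZT22 and 9.33, 8.77 and 9.95 FPKM at ZT2 (log2 0.53 ± 0.07 SE, adjusted p = 3.5e-06). Arntl was at 8.65, 9.85 and 9.24 FPKM and then at 11.2, 13.8 and 13.5 FPKM (log2 0.43, adjusted p = 0.024), and although its groups did not overlap, the call was lost without ZT2 replicate 2 (log2 difference 0.38, adjusted p = 0.082), without ZT2 replicate 3 (log2 difference 0.39, adjusted p = 0.071), without ZT22 replicate 1 (log2 difference 0.39, adjusted p = 0.084) and without ZT22 replicate 3 (log2 difference 0.43, adjusted p = 0.056). Their paralog partner Npas2 was not called (log2 -0.05). Dbp, an activator at D-box sequences and a direct clock output, was at 16.4, 15 and 17.2 FPKM and then at 6.76, 6.49 and 5.73 FPKM (log2 -1.23 ± 0.12 SE, adjusted p = 2.5e-08). Tef, of the same family, was at 42.2, 42.5 and 40.6 FPKM and then at 23.3, 28.8 and 29.2 FPKM (log2 -0.61 ± 0.06 SE, adjusted p = 7.6e-08), and Hlf fell by 0.39 (adjusted p = 0.0015). Nfil3, the repressor at the same D-box sequences, was at 12.8, 14.3 and 12.2 FPKM and then at 31.7, 22.6 and 26.8 FPKM (log2 0.98 ± 0.10 SE, adjusted p = 2.7e-08). The 3 activators were thus lower in every ZT2 library, and the repressor higher. Of the cold-inducible RNA-binding proteins, Rbm3 was at 51.5, 59.3 and 54.2 FPKM and then at 39.3, 48.2 and 39.7 FPKM (log2 -0.37, adjusted p = 3.3e-04), while Cirbp was not called (log2 0.14, adjusted p = 0.16).

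**Figure D3:**
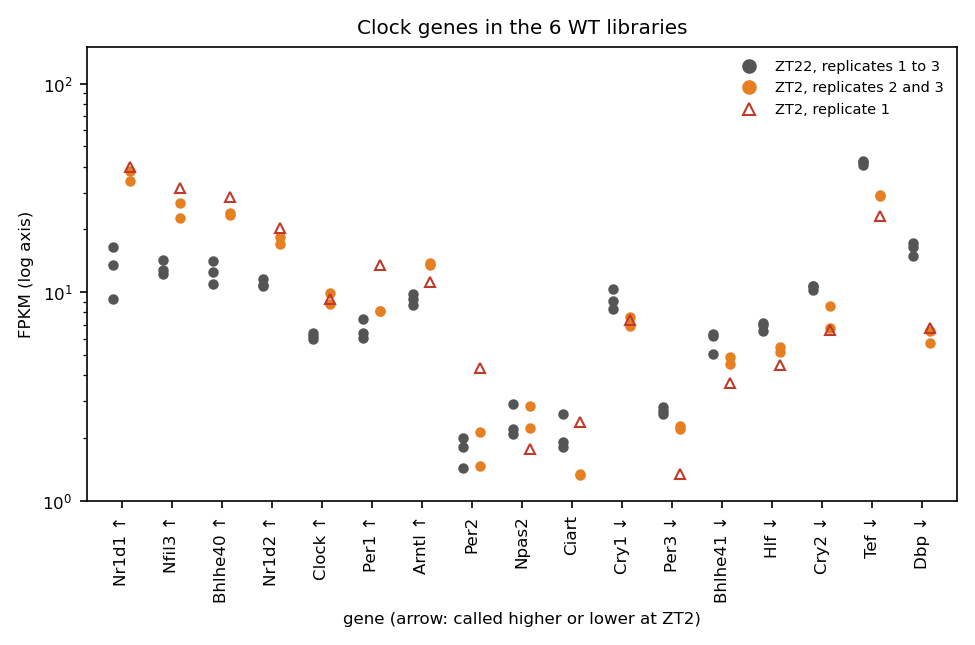
FPKM (log axis) of clock genes in each library, ordered by log2 difference, with the symbols as in the plot of chaperones by library. Nr1d1, Nfil3 and Bhlhe40 rise in all 3 ZT2 libraries and Dbp and Tef fall in all 3, while Per1, Per2 and Per3 differ most in replicate 1 of ZT2.

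Genes of insulin signalling and of fasting metabolism moved in both directions. Of 25 genes of insulin and growth signalling, 7 rose and 3 fell (7 and 2 without replicate 1). Pdpk1, the kinase that activates AKT, rose by 0.35 (adjusted p = 9.8e-05). Of 26 genes of muscle ubiquitin ligases, FOXO factors and autophagy, 9 rose and 1 fell (11 and 2 without replicate 1). Fbxo30, a muscle ubiquitin ligase, was at 5.96, 6.25 and 5.46 FPKM at ZT22 and 10.4, 10.8 and 11.1 FPKM at ZT2 (log2 0.77 ± 0.07 SE, adjusted p = 5.0e-09), without overlap. Pdk4, the kinase that shuts pyruvate out of the mitochondrial oxidation of glucose, was at 146, 135 and 147 FPKM and then at 219.7, 259 and 428 FPKM (log2 1.02 ± 0.23 SE, adjusted p = 0.0015); replicate 3 was the highest. Its counterpart Pdp2, a phosphatase that opens this gate, was at 6.71, 7.13 and 6.79 FPKM and then at 3.1, 3.63 and 4.62 FPKM (log2 -0.73 ± 0.10 SE, adjusted p = 5.6e-06). Over the list of fasting and PPAR-responsive genes that holds Pdk4, 2 of 21 rose and 4 fell (4 and 1 without replicate 1), against 12.7% and 14.8% of all genes. Ucp3, a mitochondrial uncoupling protein gene of muscle, was among those that fell (log2 -0.67, adjusted p = 0.0096), a call lost without ZT2 replicate 1 (log2 difference -0.50, adjusted p = 0.075). Of 17 regulators of mitochondrial metabolism, 5 rose and 1 fell (4 and 1 without replicate 1). Ppara, the fatty acid receptor, was at 13, 13.6 and 12.9 FPKM and then at 25.2, 18.4 and 17.8 FPKM (log2 0.58, adjusted p = 2.3e-06; 0.43 without replicate 1).

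Fatty acid oxidation, respiration and the citric acid cycle gave few calls. Among 20 enzymes of fatty acid oxidation, 0 rose and 1 fell (3 and 1 without replicate 1). The gene that fell was Cpt1b, which carries fatty acids into mitochondria, at 364, 360.2 and 379.6 FPKM and then 312, 339.8 and 329.8 FPKM (log2 -0.17, adjusted p = 5.9e-04). Respiratory chain and ATP synthase genes rose in 5 and fell in 4 of 36 cases (5 and 2 without replicate 1), and citric acid cycle genes rose in 2 and fell in 0 of 18 (2 and 0). These shares lie near or under the background of 12.7% and 14.8%. Glucose uptake and glycolysis fell in 7 of 22 genes and rose in 0 (6 and 0 without replicate 1; median -0.07). Gapdh was at 5701, 5287 and 5514 FPKM and then at 4222, 4796 and 4339 FPKM (log2 -0.31 ± 0.05 SE, adjusted p = 2.6e-05), and Pgam2, the muscle phosphoglycerate mutase, fell by 0.23. Sterol and fatty acid synthesis genes under SREBP control fell in 12 of 25 cases and rose in 1 (7 and 1 without replicate 1; median -0.16). Srebf1, which encodes the SREBP1 transcription factor, was at 12.5, 14.1 and 14 FPKM and then at 8.61, 9.28 and 8.55 FPKM (log2 -0.57 ± 0.11 SE, adjusted p = 3.5e-04), and Mvd, an enzyme of sterol synthesis, fell by 0.56. Both genes were lower in all ZT2 libraries than in any ZT22 library. Hmgcs1, of the same pathway, was not called (log2 -0.004, adjusted p = 0.96). Of 21 genes of triglyceride handling, 5 fell and 0 rose (6 and 1 without replicate 1), with Agpat2, of triglyceride synthesis, at -0.45 and Pnpla2, the main triglyceride lipase, at -0.35.

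Contractile genes moved in both directions. Myh7, the slow myosin heavy chain of the fetal mouse heart, was at 49, 57.5 and 39.3 FPKM at ZT22 and 161, 283 and 293 FPKM at ZT2 (log2 2.28 ± 0.44 SE, adjusted p = 3.3e-04; 2.56 without replicate 1). Acta1, the skeletal isoform of sarcomeric actin, was at 1608, 1636 and 1634 FPKM and then at 590.3, 295 and 319 FPKM (log2 -2.09 ± 0.29 SE, adjusted p = 5.0e-06; -2.40 without replicate 1). Both are counted as fetal genes of the stressed heart, and here all libraries of ZT2 lay above ZT22 for Myh7 and below it for Acta1. Actc1, the cardiac actin, was at 14927, 13918 and 14735 FPKM and then at 12023, 10955 and 10639 FPKM (log2 -0.38 ± 0.04 SE, adjusted p = 5.2e-07). It was not called with quantile normalization (log2 difference 0.00). That method gives the same value to the same rank in every library. It therefore cannot show a change that leaves the rank of a gene the same. Myh6, the adult myosin heavy chain, was at 4915, 4921 and 4928 FPKM and then at 5317, 6016 and 6300.3 FPKM (log2 0.25, adjusted p = 0.0099), a call lost without ZT2 replicate 3 (log2 difference 0.20, adjusted p = 0.06). Over the whole list of 29 sarcomere and Z-disc genes, 6 rose and 12 fell (7 and 11 without replicate 1), against 12.7% and 14.8% of all genes. Myl2 and Tpm1 were not called (log2 0.01 and -0.02). Ankrd1, a stretch-responsive nuclear protein gene, was at 948, 821 and 1028 FPKM and then at 636, 521 and 528 FPKM (log2 -0.73, adjusted p = 0.0017). Nppa, the atrial natriuretic peptide gene, was at 350.0, 358 and 372 FPKM and then at 305, 161 and 179.7 FPKM (log2 -0.80, adjusted p = 0.0066), a call lost without ZT2 replicate 2 (log2 difference -0.62, adjusted p = 0.051). Nppb, the B-type peptide gene, was not called (log2 0.31, adjusted p = 0.19), and was called without ZT2 replicate 3 (log2 difference 0.59, adjusted p = 0.0063).

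Of 28 cardiac ion channel genes, 4 rose and 8 fell (4 and 5 without replicate 1), against 12.7% and 14.8% of all genes. Kcnd2 and Kcnd3, which encode channels of the transient outward potassium current, moved apart. Kcnd2 was at 5.23, 5.28 and 4.88 FPKM at ZT22 and 6.51, 7.79 and 7.41 FPKM at ZT2 (log2 0.42 ± 0.10 SE, adjusted p = 0.0016), and Kcnd3 was at 4.39, 4.12 and 4.07 FPKM and then at 2.48, 2.8 and 3.33 FPKM (log2 -0.43 ± 0.10 SE, adjusted p = 0.0017). Neither overlapped between groups. Cacnb2, a subunit of the L-type calcium channel, rose by 0.52 (adjusted p = 2.2e-07). Calcium cycling genes rose in 4 and fell in 2 of 19 cases (3 and 2 without replicate 1), against the same background. Trdn, a protein of the calcium release unit, was at 0.32, and Jph2, which ties that unit to the cell membrane, at -0.18. The calcium pump gene Atp2a2 was not called (log2 0.07). The call of Jph2 was lost without ZT2 replicate 3 (log2 difference -0.11, adjusted p = 0.09).

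RNA processing and translation genes changed unevenly. Of 18 SR splicing factors and CLK kinases, 10 rose and 2 fell (9 and 2 without replicate 1), against 12.7% and 14.8% of all genes. Their median was 0.24. Srsf10 was at 17.2, 15.6 and 17.1 FPKM and then at 30.1, 29.7 and 25.1 FPKM (log2 0.73 ± 0.06 SE, adjusted p = 1.7e-09), Tra2b was at 23.5, 26.4 and 21.7 FPKM and then at 41.3, 40.8 and 36.7 FPKM (log2 0.71, adjusted p = 3.5e-08), and neither overlapped between groups. Srsf2 and Srsf4 were not called (log2 0.07 and -0.05). Of 32 translation factors, 13 rose and 2 fell, and 7 and 3 without replicate 1. Eif4a2, a helicase of translation initiation, was at 152, 143 and 154 FPKM and then at 217, 202 and 209 FPKM (log2 0.48 ± 0.06 SE, adjusted p = 3.0e-06). The 76 cytosolic ribosomal protein genes gave 7 higher and 4 lower calls (3 and 3 without replicate 1) and the 33 proteasome genes 1 and 4 (0 and 3), both under the background share.

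Interferon-stimulated genes were lower. Of 25 tested, 10 fell and 0 rose, against 14.8% and 12.7% of all genes, with a median of -0.31. Without replicate 1 the counts were 7 and 0 and the median -0.32. Ifit3 was at 12.5, 10.9 and 12.9 FPKM at ZT22 and 5.54, 5.54 and 5.24 FPKM at ZT2 (log2 -1.02 ± 0.13 SE, adjusted p = 1.4e-06). Irf7, the transcription factor that amplifies interferon production, was at 13, 13.7 and 14.1 FPKM and then at 9.57, 8.96 and 6.84 FPKM (log2 -0.64 ± 0.13 SE, adjusted p = 6.8e-04). The ZT2 libraries all lay below the ZT22 libraries in these genes, and Oasl2 fell by 0.55 (adjusted p = 0.005). Bst2 was not called (log2 -0.20, adjusted p = 0.25). Nfe2l2, which encodes the antioxidant regulator NRF2, was at 31.3, 32.9 and 31.3 FPKM and then at 69, 47 and 43.7 FPKM (log2 0.69, adjusted p = 2.0e-06; 0.50 without replicate 1), and in the list of 24 antioxidant genes it belongs to, 2 rose and 6 fell (1 and 5 without replicate 1), among them Nqo1 at -0.29 and Gsta3 at -0.64.

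**Figure D4:**
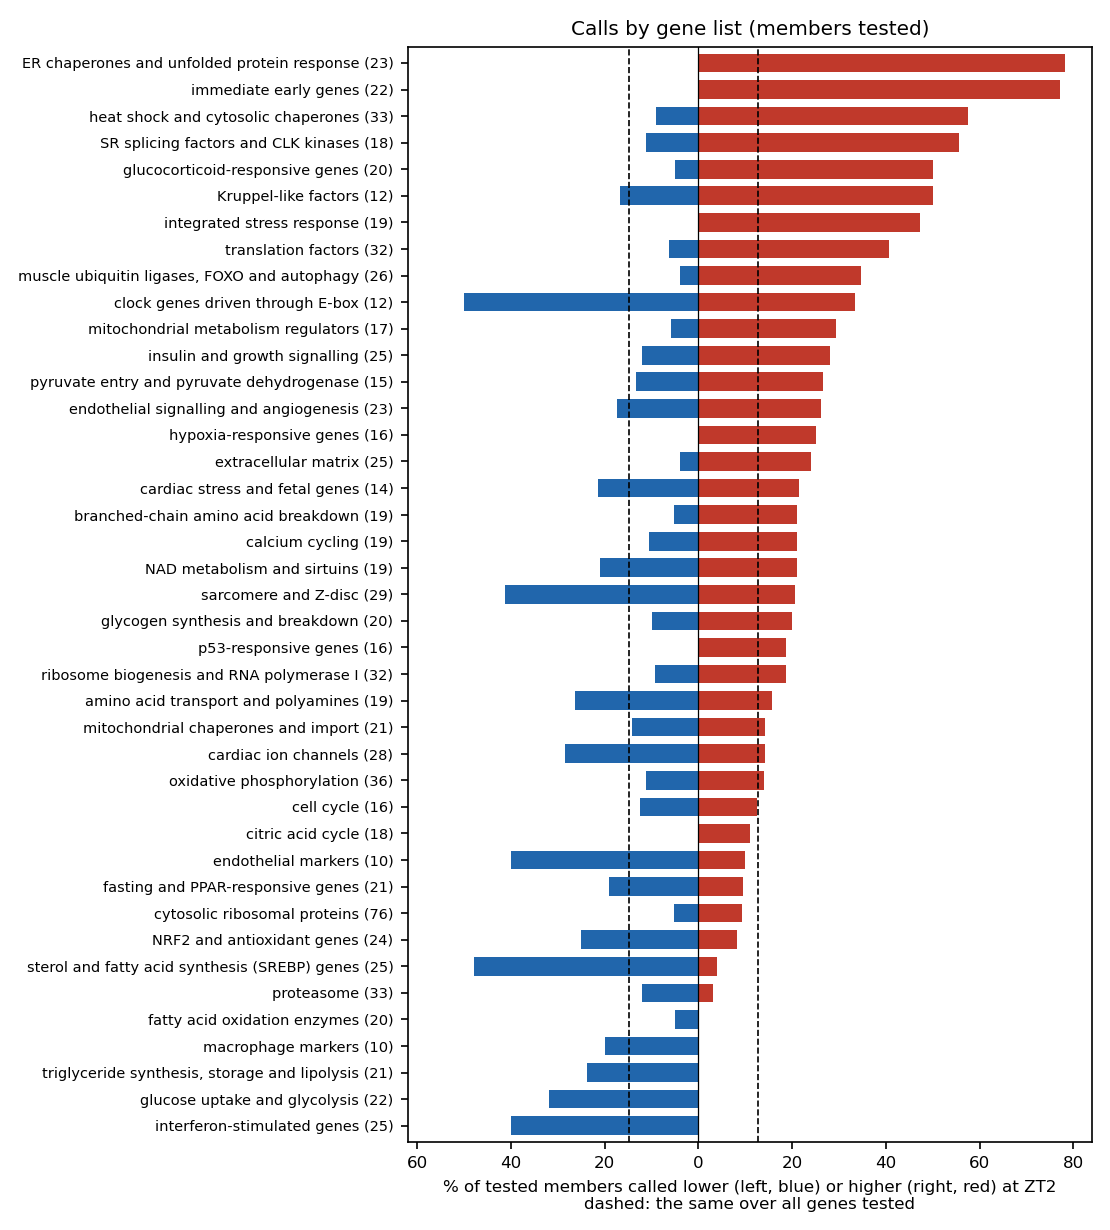
Share of the tested members of each list with at least 10 tested genes called higher (red, right) or lower (blue, left) at ZT2, with the number tested in brackets; dashed lines are the shares over all 11790 genes, 12.7% higher and 14.8% lower. Chaperone, immediate early and splicing factor lists have the largest shares of higher calls, and interferon-stimulated, SREBP and E-box clock genes are among those with the largest shares of lower calls.

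Markers of other cell types were followed in the same libraries, beside 12.7% of all genes called higher and 14.8% called lower. Fibroblast markers rose in 3 of 9 cases and fell in 0, with and without replicate 1 of ZT2, and their sum over 9 genes was 848 to 882 FPKM at ZT22 and 983 to 1047 FPKM at ZT2. Endothelial markers rose in 1 and fell in 4 of 10 (0 and 4 without replicate 1), with sums over 10 genes of 967 to 1051 FPKM and 845 to 964 FPKM. Egfl7 fell by 0.55 and Emcn by 0.50, while Pecam1 was not called (log2 -0.02, adjusted p = 0.72). Markers of smooth muscle fell in 3 and rose in 0 of 5 tested (2 and 0 without replicate 1), with sums over 6 genes of 215 to 294 FPKM and 120 to 173 FPKM, led by Acta2 at 179, 156 and 236 FPKM and then 124, 119.8 and 70.2 FPKM (log2 -0.88). Red cell markers fell in 2 and rose in 0 of 5 tested, a count of 0 and 0 without replicate 1, and their sum over 7 genes was 4431 to 4664 FPKM and 2982 to 4163 FPKM. Of mesothelial markers, 4 fell and 1 rose among 5 (2 and 1 without replicate 1), at sums of at most 9.83 FPKM. Of macrophage markers, 2 fell and 0 rose among 10 (5 and 0 without replicate 1), with sums of 282 to 289 FPKM and 213 to 316 FPKM, including Cx3cr1 at 2.8, 3.03 and 1.33 FPKM and then 0.23, 0.68 and 0.54 FPKM. Atrial markers fell in 1 (Nppa) and rose in 0 of 4 tested, with and without replicate 1. Their sums over 7 genes were 371 to 392.2 FPKM and 183 to 326 FPKM, most of it Nppa. Bmp10, a defining atrial marker, was at 0 in all 6 libraries. The atrial markers Myl7 and Sln did not reach 1 FPKM in 3 or more libraries and were not tested. How much atrial tissue the samples hold was not tested. Of 2 tested neutrophil markers, S100a9 was at 0.31, 0.28 and 1.05 FPKM and then 11.6, 1.04 and 1.38 FPKM and S100a8 was at 0.22, 0 and 0.21 FPKM and then 8.72, 0 and 0.65 FPKM. Both were thus raised in replicate 1 of ZT2 alone, the library with the highest chaperone levels. The call of S100a9 was lost without ZT2 replicate 1 (log2 difference 0.55, adjusted p = 0.33), without ZT22 replicate 1 (log2 difference 1.28, adjusted p = 0.085) and without ZT22 replicate 2 (log2 difference 1.27, adjusted p = 0.086), and S100a8 was called without ZT2 replicate 2 (log2 difference 1.81, adjusted p = 0.012). The part of these cell types in the differences of the other lists was not tested.

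The step across lights on had the largest number of calls of the day's steps when all libraries were used. Between neighbouring times in WT hearts, 3242 genes were called from ZT22 to ZT2, 2741 from ZT14 to ZT18, 1937 from ZT2 to ZT6, 1355 from ZT10 to ZT14, 818 from ZT6 to ZT10 and 753 from ZT18 to ZT22, steps that share libraries with their neighbours. Without replicate 1 of ZT2 the count across lights on was 2586, and leaving out each of its 6 libraries in turn gave 2497 to 2978. The step from ZT14 to ZT18 was counted with all its libraries only, so its 2741 is not a like comparison for these counts. The median size of the difference over all genes was 0.13 on the log2 scale across lights on and 0.08 to 0.12 in the other steps. Many of the strongest changes were at an extreme of the day. Of the 40 genes that rose by at least 1 on the log2 scale, 33 had their highest mean of all 6 times at ZT2, against 14.7% of all genes tested, and of the 15 genes that fell by as much, 14 had their lowest mean there, against 23.0%; since ZT2 was used to choose these genes, the shares are a description. Irs2 had a mean of 9.58 FPKM at ZT2, 1.74 at ZT6 and 1.83 at ZT10, and at most 2.44 FPKM at the other times. Sik1 had a mean of 24.3 FPKM at ZT2 and of 5.62 to 7.15 FPKM at the other times. Hspa1a had a mean of 56.6 FPKM at ZT2, 2.16 at ZT6, 0.653 at ZT10 and 8.21 at ZT14, the next highest. Acta1 had a mean of 1626 FPKM at ZT22 and of 401 to 813 FPKM at the other times. By contrast Nr1d1 was on its way to a later peak, with means of 37.4 FPKM at ZT2 and 70.4 FPKM at ZT6.

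The step across lights off, from ZT10 to ZT14, shares no library with the step across lights on, and the difference between the steps was tested. WT ZT14 differed from WT ZT10 in 1355 genes (11.5%), 507 higher and 848 lower. With median-ratio scaling the split was 723 higher and 634 lower. In 1734 genes (14.7%) the lights-on step differed from the lights-off step, 931 with the higher log2 difference at lights on (7.9%) and 803 with the lower (6.81%); with median-ratio scaling these counts were 843 and 905. The 6 genes with the smallest adjusted p were Pnrc1, Nr1d1, Irs2, Klf6, Slc41a3 and Arl4d. Pnrc1, a nuclear receptor coactivator, was at 45.4, 43.1 and 47.9 FPKM at ZT22 and 90.3, 108 and 113 FPKM at ZT2 (log2 1.17), and its lights-off difference was -0.51. Klf6, a Krüppel-like factor, was at 13.2, 12.9 and 12.6 FPKM and then at 26.4, 24.8 and 27.3 FPKM (log2 0.97), against -0.40 across lights off. Slc41a3, a magnesium transporter gene, was at 28.4, 27.5 and 26.6 FPKM and then at 44, 48.6 and 46.9 FPKM (log2 0.74), against -1.64. Arl4d, a small GTPase gene, was at 12.3, 14.6 and 11.3 FPKM and then at 7.04, 7.68 and 8.03 FPKM (log2 -0.68), against 0.78. These 4 genes moved in opposite directions at the 2 transitions, as did Nr1d1 (1.48 and -1.65), while Irs2 was at 1.92 and -0.33. The adjusted p-values of the differences between steps ran from 4.04e-10 to 1.61e-08. Of the 1493 genes higher at ZT2 than ZT22, 183 were also higher at ZT14 than ZT10. That is 12.3% of the first list, against 4.3% of all genes, and 36.1% of the second, against 12.7% of all genes. The opposite call, lower at ZT14, was made in 92 of the 1493 (6.16%, against 7.19% of all genes). Of the 1749 lower genes, 230 were also lower across lights off. They are 13.2% of the first list, against 7.19% of all genes, and 27.1% of the second, against 14.8% of all genes. Of the same 1749 genes, 80 were higher across lights off (4.57%, against 4.3%).

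Hearts in the middle of the light and of the dark, at ZT6 and ZT18, lie 4 h further from lights on on either side and share no library with the 6 compared here. ZT6 differed from ZT18 in 3355 genes (28.5%), 2149 higher (18.2%) and 1206 lower (10.2%); with median-ratio scaling the split was 1607 higher and 1741 lower. Of the 1493 genes higher at ZT2 than at ZT22, 612 were also higher at ZT6 than at ZT18, which is 41.0% of the first list and 28.5% of the second, and 130 were lower. Of the 1749 lower genes, 420 were also lower, 24% of the first list and 34.8% of the second, and 184 were higher. For 751 of the higher and 1145 of the lower genes, ZT6 and ZT18 were not called different.

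**Figure D5:**
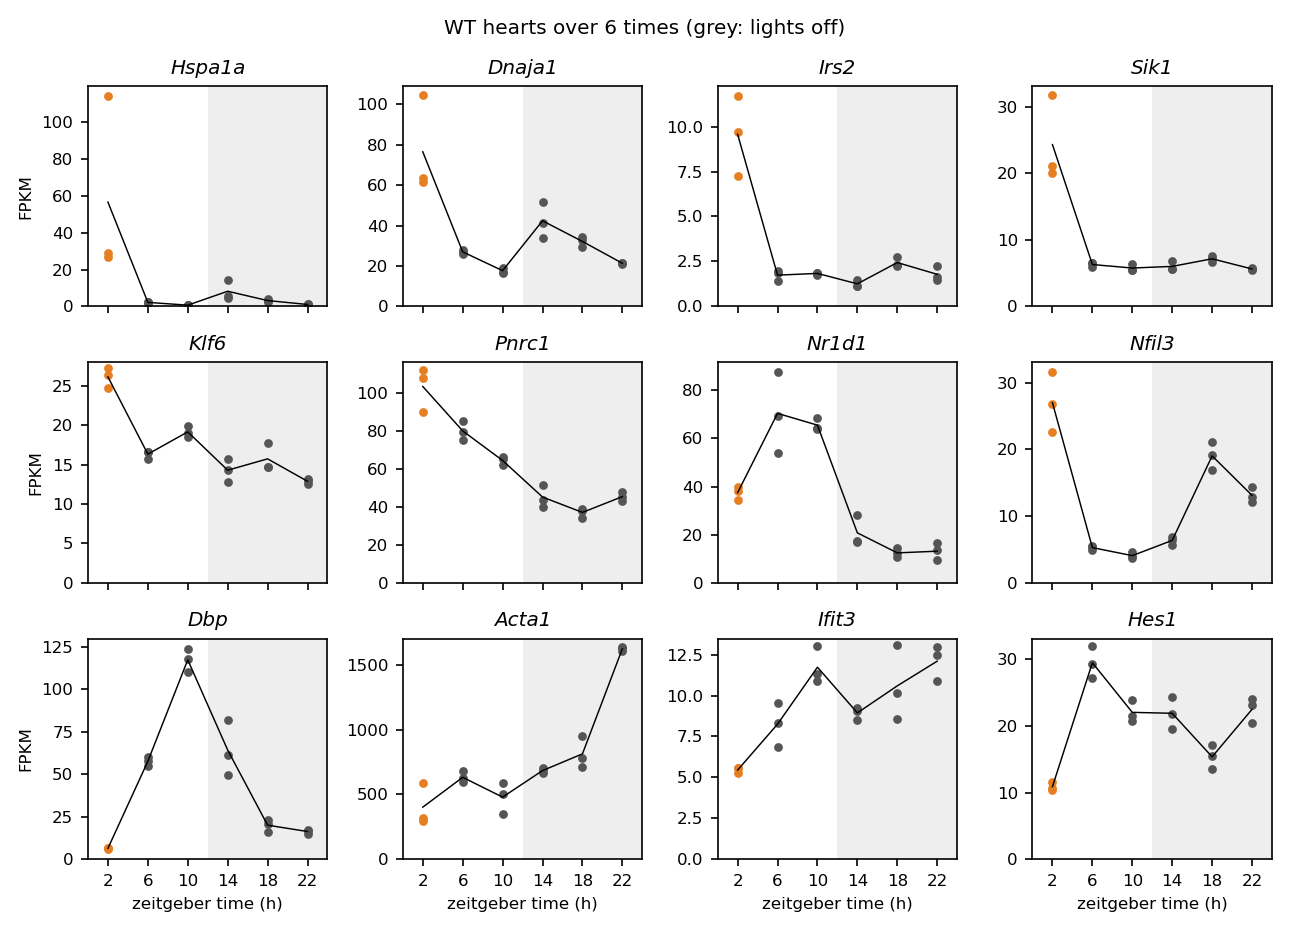
FPKM of 12 genes in the 3 WT libraries of each time (points; orange at ZT2) with the mean joined by a line, against zeitgeber time in hours; the dark phase is shaded. Hspa1a, Dnaja1, Irs2 and Sik1 stand out at ZT2 only, Nfil3 also at ZT18, Nr1d1 continues to rise to ZT6, Dbp and Hes1 are at their lowest mean at ZT2 and Acta1 is at its highest at ZT22.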

How the data were processed

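RNA-seq of whole hearts was used: 6 WT libraries (3 at ZT22, 3 at ZT2) in a fit with all 33 libraries that have an FPKM table, 18 WT and 15 KO, in 11 groups. The deposited FPKM values, 1 table per library, were made by the authors against mm10, per the submitters' processing notes. That they are FPKM was read from the values, while no source used here names the aligner, the counter or the strand setting. The 3 deposited tables of expected counts recorded for KO ZT22 name KO ZT10 in their headers, so KO ZT22 is not analysed here. Gene lengths were derived from these counts, and depths and counts of all libraries were rebuilt with those lengths. Of the columns, 1 was not used. Of 18762 gene IDs, 18623 had a name.

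Genes that reached 1 FPKM in 3 or more libraries (11790) were compared by limma 3.58.1 (R 4.3.3) on log2(FPKM + 1), by group means with 22 residual degrees of freedom, a trend on level and Benjamini-Hochberg adjustment over all of them, called at an adjusted p under 0.05. Fold changes on this scale understate the change of low genes. The fit was tested on simulated data. Sequencing depth was recovered from FPKM steps, with 65.0% to 76.2% of values within 0.15 of a whole read. The depths of the KO ZT10 libraries were within 0.35% of their deposited totals. Those totals also entered the gene lengths, so this is no independent check of the depths. The rebuilt counts were used only for edgeR 4.0.16, as an alternative.

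The comparison, the gene lists and the rules were chosen with earlier results of these data known. Named genes were the 12 largest increases and decreases among called genes averaging 2 FPKM or more and without overlap, all clock, cold-inducible and heat shock genes, up to 5 called members and 2 not called of every other list, and the 6 smallest adjusted p for the difference between light transitions. Alternatives changed scaling, pseudocount, filter, libraries fitted, library weights, the replicate block, the test, and left out each library in turn. Results for some listed genes are not reported here.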

Additional observations from a re-analysis of the deposited data

Results flagged for a closer look

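In 6 genes the difference across lights on was tested against the difference across lights off (WT ZT2 minus ZT22, less WT ZT14 minus ZT10) and had the smallest adjusted p-values of all genes (limma, Benjamini-Hochberg). The difference between the steps, on the log2 scale, was 1.68 for Pnrc1 (adjusted p = 4.04e-10), 3.13 for Nr1d1 (adjusted p = 5.24e-10), 2.25 for Irs2 (adjusted p = 1.31e-09), 1.37 for Klf6 (adjusted p = 1.31e-09), 2.38 for Slc41a3 (adjusted p = 3.24e-09) and -1.46 for Arl4d (adjusted p = 1.61e-08). Mean levels of Slc41a3 were 46.5 FPKM at ZT2, 33.6 at ZT6, 29.2 at ZT10, 8.6 at ZT14, 15.5 at ZT18 and 27.5 at ZT22. Mean levels of Arl4d were 7.58 FPKM at ZT2, 12.8 at ZT6, 11.4 at ZT10, 20.4 at ZT14, 10.03 at ZT18 and 12.8 at ZT22.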

How the results depend on the processing

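No call of a named gene reversed its direction in any of the alternatives run. Which direction held more calls did change with scaling. For ZT2 against ZT22, 1493 genes were higher and 1749 lower, and 1707 and 1578 with median-ratio scaling. Of 354 named genes, 244 were called, and 129 of these kept their call in all 19 alternatives. The count of genes that differed between ZT2 and ZT22 (3242) fell to 1535 in a fit of the 6 libraries alone, and was 1848 in that fit without ZT2 replicate 1, an alternative chosen after seeing the data. Leaving out each library in turn gave 2497 to 2978 genes for this comparison, 1277 to 1814 for lights on against lights off, and 2593 to 3020 for ZT6 against ZT18. With the replicate number as a block, in fits of the groups compared, 989 genes differed between ZT2 and ZT22 and 899 between the light transitions. Same-numbered libraries showed no broad shared deviation: their deviations correlated over genes at 0.022, -0.046 and -0.075, and those of other pairs at -0.047 to 0.097. A pairing that acts on few genes would not show in these values, so whether the numbers pair the libraries is not known. The cause of these changes in count was not tested. edgeR on rebuilt counts called 1730 genes higher and 1534 lower, and 1358 and 1231 without ZT2 replicate 1, also chosen after seeing the data. Of 1034 list medians computed under alternatives, 134 moved by more than the spread between replicates. With 3 libraries a group, a small difference that was not called may still exist.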
